A study of Mus musculus with 4 samples.

Results

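The genes described here are 33 genes of autophagy, the route by which a cell wraps its own cytoplasm in a membrane and delivers it to the lysosome. They were taken as a list of gene symbols, and each symbol matched 1 of the 55536 genes of the deposited gene tables. They were followed through 4 polyA RNA-seq libraries. The cells were regulatory T cells (Treg), CD4 T cells that hold other immune cells in check, and the labels call them inflammation-experienced. They are primary cells from an adult male mouse, 6 months old, of the strain Foxp3CreERT2 x Rosa26YFP, and by the labels they trace back to a hematopoietic cell of the bone marrow. Such mice express an inducible Cre recombinase from Foxp3 and carry a fluorescent reporter at Rosa26. The labels do not say how or for how long inflammation was induced. All 4 libraries are numbered as technical replicates of biological replicate 1. There was thus 1 group and no comparison between conditions, and a p-value here measures only the spread between libraries of 1 sample, which may be technical.

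In autophagy, a kinase complex built around ULK1 switches the process on, and a lipid kinase complex built around Beclin 1 marks the membrane from which the autophagosome grows. Lipid transfer proteins and a scramblase feed that membrane, and ubiquitin-like conjugation enzymes attach proteins of the ATG8 family (LC3 and GABARAP) to it. Cargo receptors bind ATG8 proteins, the closed vesicle fuses with the lysosome, and transcription factors of the MiT/TFE family switch on lysosomal and autophagy genes. In Treg of mice, autophagy is known to be needed for the stability and survival of the lineage.

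The libraries held 9284432, 9341328, 9325636 and 6648385 expected counts, in the order of libraries 1 to 4. All 6 Treg markers and all 6 T cell markers examined were at 10 TPM or more in each library, where TPM is the level of a gene's transcripts per length, scaled to the same total in each library. Foxp3 itself averaged 27.8 ± 8.01 TPM (SD, n = 4). Library 1 stood apart in erythroid markers, mostly in globin genes. Hba-a1, Hba-a2, Hbb-bs and Hbb-bt had 220, 396, 344 and 100 TPM there. Alas2, Slc4a1 and Epb42 were also highest in library 1, at 4.57, 1.47 and 0.65 TPM, but Klf1 was not. The summed level of 8 erythroid genes was 1068 TPM in library 1, against 5.19, 39.1 and 17.8 TPM in libraries 2, 3 and 4. The 5 B cell markers summed to 177, 125, 79.0 and 149 TPM, and the 10 myeloid markers to 40.9, 11.1, 8.49 and 21.7 TPM, with Ly6g listed at 0 in all libraries. Hba-a1, Hbb-bt, Slc4a1 and Klf1 were each listed at 0 in 1 or more of libraries 2, 3 and 4. Whether these other cells contributed to the level of an autophagy gene was not tested, and in such bulk libraries fewer cells of a type and less RNA per cell cannot be told apart.

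Most of the autophagy genes were present at a moderate level, and 3 members of the ATG8 family stood above the rest in the gene table. Of the 33 genes, 30 reached 1 TPM in every library and 19 reached 10 TPM in every library. The median of their mean levels was 16.3 ± 1.82 TPM (SD of the 4 libraries' medians). The 30 genes that reached a mean count of 10, and so entered the tests, had a median mean level of 20.1 TPM, against 14.1 TPM over all 13045 genes tested. The levels of all 33 genes summed to 1408 ± 50.7 TPM (SD, n = 4). The 5 ATG8 genes gave 805 ± 27.8 TPM of that sum and the other 28 members 603 ± 40.3 TPM, with the ATG8 genes above in every library. In length-scaled counts on the older GENCODE M4 annotation the order turned, at 454 ± 22.4 for the ATG8 genes and 623 ± 62.0 for the other members, with the ATG8 genes below in every library.

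**Figure D1:**
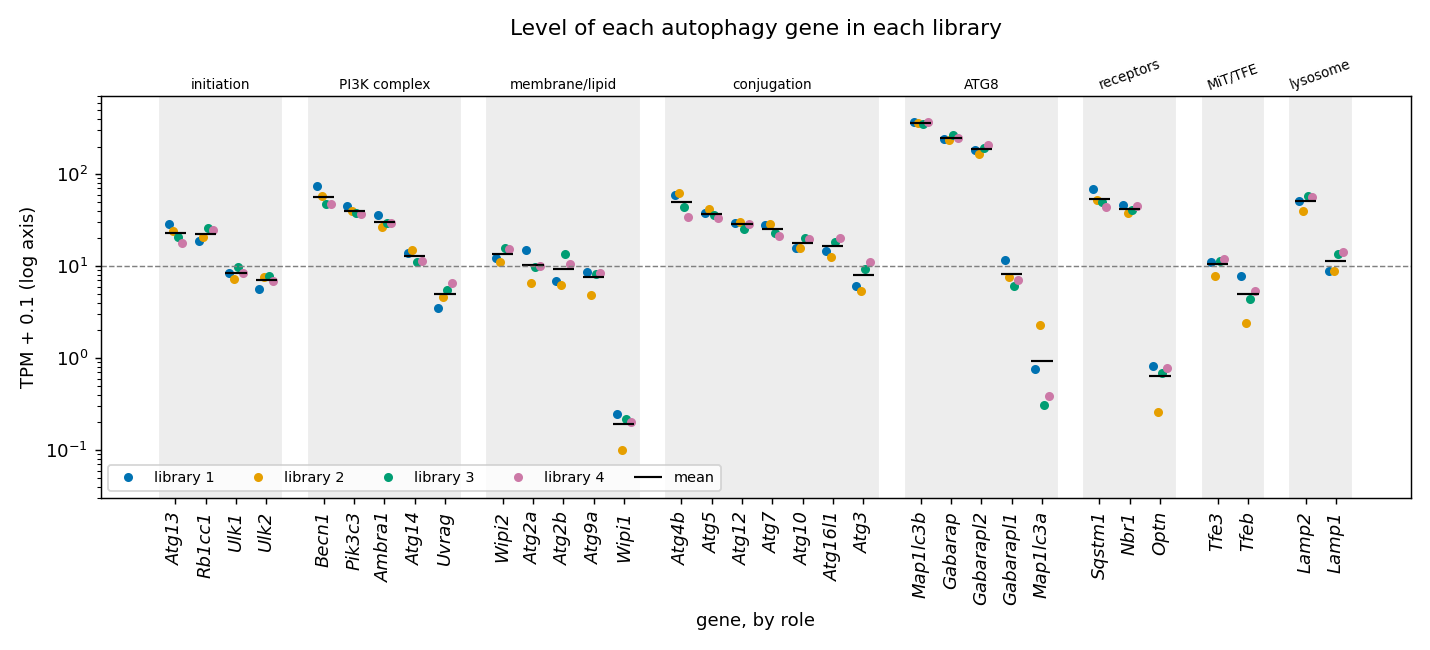
TPM + 0.1 on a log axis for each of the 33 autophagy genes, grouped by role, with 1 point per library and a bar at the mean over the 4 libraries; the dashed line marks 10 TPM. Map1lc3b, Gabarap and Gabarapl2 lie above 100 TPM in every library, while Wipi1, Map1lc3a and Optn lie at the bottom.

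The ATG8 proteins are the ubiquitin-like tags that decorate the autophagosome and hold its cargo. Map1lc3b (chr8:121590361-121598760, plus strand, mm10), which encodes LC3B, had 371, 358, 354 and 369 TPM in libraries 1 to 4, a mean of 363 ± 8.06 TPM (SD, n = 4). Gabarap (chr11:69991143-69994951, plus strand) had 240, 233, 267 and 247 TPM. Gabarapl2 (chr8:111940703-111953612, plus strand), which encodes GATE-16, had 181, 167, 191 and 209 TPM. The order Map1lc3b, Gabarap, Gabarapl2 was the same in every library of the gene table. The closest relatives of these genes were far lower: Gabarapl1 averaged 8.04 ± 2.38 TPM, and Map1lc3a, which encodes LC3A, was at 0.66, 2.2, 0.21 and 0.29 TPM from 3, 11, 1 and 1 counts. As shares of the family's summed TPM, Map1lc3b held 45.1% ± 1.59, Gabarap 30.6% ± 1.36, Gabarapl2 23.2% ± 1.45 and Gabarapl1 1.00% ± 0.302 (SD, n = 4). The family's makeup thus moved little between libraries.

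The order of Map1lc3b and Gabarap turned with the quantification. The log2 ratio of Gabarap over Map1lc3b, on the log2(TPM + 0.1) scale, was -0.56 ± 0.10 in the gene table (SD, n = 4) but 1.19 ± 0.11 in the whole-number counts on the older GENCODE M4 annotation after division by length. In those counts the length-scaled level of Map1lc3b was 118, 113, 113 and 116 in libraries 1 to 4, against 371, 358, 354 and 369 TPM in the gene table. The M4 table held 0.366 of the expected counts of Map1lc3b, 0.452 of those of Gabarapl2 and 0.410 of those of Gabarapl1, but 1.24 times those of Gabarap. Gabarapl2 averaged 72.6 ± 8.45 in the length-scaled M4 counts, next to Becn1 at 62.5 ± 10.96, Sqstm1 at 62.4 ± 20.96 and Pik3c3 at 62.3 ± 4.40 (SD, n = 4), so there it did not stand clear of these genes. Map1lc3b and Gabarapl2 share stretches of sequence with processed pseudogenes. Of the 50-base words of their leading transcripts, 38.1% of Map1lc3b and 35.1% of Gabarapl2 also occurred in transcripts of other genes, against 0% of Gabarap. The value of Map1lc3b is for the transcript Map1lc3b-203, which held 19.9% of its counts. Map1lc3b-201, with 67.0% of counts, was not examined for shared words. The value of Gabarapl2 is for the noncoding transcript Gabarapl2-203, with 49.2% of its counts. The coding Gabarapl2-201, with 50.8% of counts, was not examined either. The closest other genes were the processed pseudogenes Gm6055 for Map1lc3b and Gm3724 for Gabarapl2. In Gabarapl1, 18.6% of the words were shared with 1700101I11Rik, which overlaps it on the opposite strand. Zcchc14 overlaps Map1lc3b on the opposite strand. The strand setting of the counting is not given in the sources used here, and the part of shared sequence in the difference was not tested.

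The initiation complex was led by its non-kinase subunits. Atg13, the adaptor that carries ULK kinases, had 28.4, 24.0, 20.8 and 17.9 TPM in libraries 1 to 4. Rb1cc1, which encodes the scaffold FIP200, averaged 22.5 ± 3.31 TPM. Both kinases were lower. Ulk1 had 8.25, 7.23, 9.74 and 8.28 TPM and Ulk2 had 5.49, 7.62, 7.72 and 6.86 TPM. Their log2 ratio, 0.28 ± 0.27, did not separate them: Ulk1 was the higher in 3 of 4 libraries, and the mean ratio in the length-scaled M4 counts was -0.43.

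In the lipid kinase complex, Becn1, which encodes Beclin 1, had 74.7, 57.5, 47.1 and 47.3 TPM. Library 1 was the highest, and libraries 3 and 4 were nearly equal. Pik3c3, the catalytic subunit VPS34, averaged 39.9 ± 3.56 TPM, and Ambra1, a cofactor of Beclin 1, averaged 30.3 ± 3.99 TPM. At the gene level, the subunits that direct the complex were the lowest. Atg14, which directs it to autophagosome formation, had 13.9, 14.8, 10.96 and 11.3 TPM in libraries 1 to 4. Uvrag, which takes its place in the endosomal form of the complex, had 3.42, 4.52, 5.34 and 6.4 TPM. Atg14 exceeded Uvrag in every library, with a log2 ratio of 1.38 ± 0.55 (SD, n = 4). In the M21 table made from the reads the ratio was 0.68 ± 0.47, under 2 SD.

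Among genes of membrane supply, Wipi2, whose product reads the lipid mark and brings in the conjugation machinery, had 12.1, 10.97, 15.6 and 15.4 TPM. Its relative Wipi1 was nearly absent, with 2, 0, 3 and 1 counts. Counts of 3 or fewer correspond to at most 0.327, 0.334, 0.311 and 0.444 CPM (counts scaled to a common library size) in libraries 1 to 4. The lipid channels Atg2a and Atg2b were near each other in the gene table. Atg2a had 14.9, 6.48, 9.58 and 9.96 TPM, highest in library 1. Atg2b had 6.77, 6.12, 13.5 and 10.4 TPM, highest in library 3. Their log2 ratio took each sign in 2 of 4 libraries (Atg2b over Atg2a, -0.16 ± 0.68, SD), so the gene table gave no order. In transcripts annotated as protein-coding, Atg2a had 10.3, 4.87, 7.4 and 6.76 TPM and Atg2b 4.53, 1.94, 4.45 and 3.57 TPM. Atg2a was thus the higher in every library there, and also in length-scaled M4 counts and in the table made from the reads. Atg9a, the scramblase that seeds the membrane, averaged 7.45 ± 1.84 TPM.

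All 7 conjugation genes were detected in every library. Atg4b, the protease that primes ATG8 proteins and later releases them, was the highest with 58.7, 63.0, 43.7 and 34.2 TPM. Atg5, which joins ATG12 in the ligase, averaged 37.3 ± 3.31 TPM, and Atg7, the activating enzyme for both conjugation reactions, averaged 25.3 ± 3.56 TPM. Atg12 had 29.2, 30.1, 25.5 and 28.5 TPM, and the log2 ratio of Atg5 over Atg12 was 0.39 ± 0.11, against 2.14 ± 0.25 in length-scaled M4 counts. Atg10, the enzyme that transfers ATG12, had 15.5, 15.7, 20.2 and 19.6 TPM. Atg16l1, which places the ligase on the membrane, had 14.7, 12.3, 18.1 and 20.1 TPM. Atg3, the enzyme that passes ATG8 proteins to the lipid, was the lowest with 5.99, 5.32, 9.3 and 11.1 TPM. It was higher in libraries 3 and 4 than in libraries 1 and 2.

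Of the cargo receptors, Sqstm1, which encodes p62, had 69.4, 52.0, 50.4 and 43.6 TPM, and Nbr1, its partner in aggregate clearance, had 46.4, 37.4, 40.4 and 44.7 TPM. Sqstm1 was the higher in 3 of 4 libraries, with a log2 ratio of 0.33 ± 0.27 (SD), and the mean turned to -0.04 in the M21 table made from the reads. In coding transcripts alone Sqstm1 was the higher in every library, averaging 48.6 ± 10.9 TPM against 25.9 ± 7.05 TPM for Nbr1. Optn, the receptor optineurin, was under 1 TPM in all libraries, at 0.73, 0.16, 0.59 and 0.69 TPM.

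Transcription factors were modest. Tfe3 had 11.1, 7.65, 11.4 and 11.98 TPM. Tfeb, the better-known regulator of lysosomal genes, had 7.81, 2.34, 4.28 and 5.28 TPM, and lay below Tfe3 in every library of the gene table (log2 ratio of Tfe3 over Tfeb 1.18 ± 0.50, SD, n = 4). That order did not hold throughout. In length-scaled M4 counts the ratio was 0.49 ± 0.56, and Tfeb was at 8.61 in library 1, above Tfe3 at 7.19. In coding transcripts alone Tfeb was at 4.27 TPM in library 3, just above Tfe3 at 4.15 TPM. Their relatives Mitf and Tfec averaged 0.518 and 0.147 TPM. Of the lysosomal membrane proteins, Lamp2 had 51.0, 39.6, 57.8 and 56.5 TPM and Lamp1 had 8.73, 8.74, 13.3 and 14.0 TPM. Lamp2 exceeded Lamp1 in every library, and the log2 ratio of Lamp1 over Lamp2 was -2.20 ± 0.23.

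Over the 12 pairs of related genes compared, 9 kept one sign in all 4 libraries with a mean log2 ratio over 2 SD; the exceptions were Ulk1 with Ulk2, Atg2b with Atg2a, and Sqstm1 with Nbr1. The exact two-sided sign-flip permutation test cannot go below 0.13 with 4 libraries, so no pair could pass 0.05. The ratios for Wipi1 and Map1lc3a rest on few counts, and their size depends on the pseudocount.

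**Figure D2:**
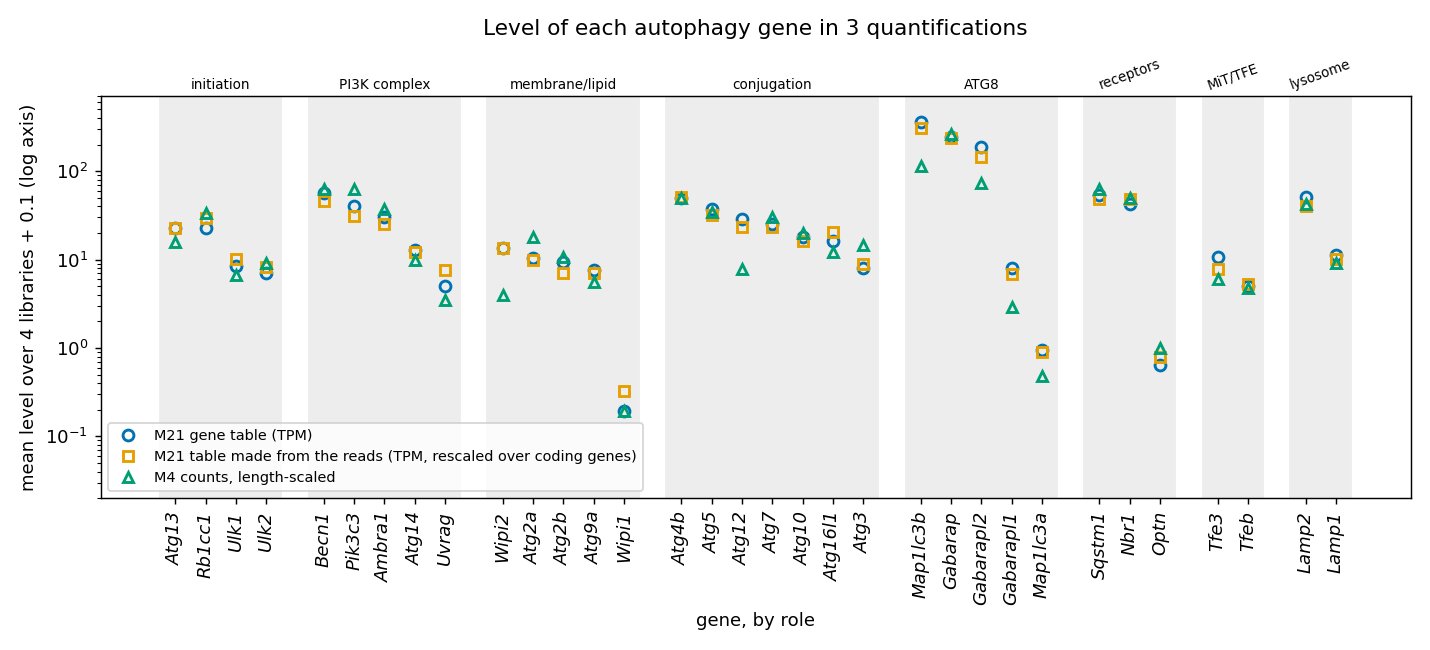
Mean level over 4 libraries (log axis, 0.1 added) of each autophagy gene in the M21 gene table, in the M21 table made from the reads after rescaling over protein-coding genes, and in length-scaled M4 counts. Map1lc3b, Gabarapl2, Gabarapl1, Wipi2 and Atg12 lie well lower in the M4 counts, and Atg2a, Atg3 and Pik3c3 higher.

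Beyond the ATG8 genes, the M4 counts set several members apart. Atg12 and Wipi2 had 0.318 and 0.334 of their expected counts there, and Atg2a and Atg3 had 2.08 and 2.11 times theirs. Of the 50-base words of the leading transcripts, 0.53% of Atg12 and 0% of Wipi2, Atg2a and Atg3 also occurred in transcripts of other genes. With M4 counts scaled by length, Atg12 averaged 7.76 ± 0.699 and Wipi2 3.83 ± 1.18, both under 10, while Atg2a averaged 18.1 ± 4.72 and Atg3 14.3 ± 4.42. Atg14 and Atg16l1 were also under 10 in at least 1 library there. The median log2 ratio of M4 to gene table over the 30 tested genes was -0.09, against -0.02 over the 10913 tested genes matched. The range over the members was -1.86 to 0.85, against a 5th to 95th percentile of -2.54 to 0.80 over all genes.

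The split of Lamp2 into its splice forms was one of the steadier isoform measurements. Lamp2 (chrX:38401357-38456454, minus strand) encodes proteins that share their lumenal part and differ in the last exon, which writes the transmembrane segment and the tail. The A form is the receptor of chaperone-mediated autophagy, a route that carries single proteins across the lysosomal membrane without a vesicle. The last 60 coding bases of the 3 coding transcripts are shown because they tell these forms apart, with the final 5 codons in capitals. Lamp2-201 (form A) ends at chrX:38405435-38405494, Lamp2-202 (form B) at chrX:38421715-38421774 and Lamp2-203 (form C) at chrX:38402142-38402201, all mm10, minus strand.
Lamp2-201: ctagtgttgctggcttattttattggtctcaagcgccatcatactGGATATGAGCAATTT
Lamp2-202: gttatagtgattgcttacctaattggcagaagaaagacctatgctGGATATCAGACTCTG
Lamp2-203: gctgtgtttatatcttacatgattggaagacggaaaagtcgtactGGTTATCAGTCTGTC
Form A held 41.7, 46.9, 47.2 and 42.5% of Lamp2 TPM in libraries 1 to 4, and form B held 48.0, 39.1, 40.7 and 47.2%. These shares crossed between libraries, so neither form led beyond the spread. Form C held 1.03% ± 0.567 (SD, n = 4). The M21 table made from the reads gave 44.6% ± 2.99 for form A and 41.5% ± 4.95 for form B. As shares of counts rather than of TPM, form A had 28.4% and form B 59.7%, since the annotated transcript of form B is 3604 bases long and that of form A 1769 bases.

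Several members had most of their TPM in transcripts not annotated as protein-coding. The median share of TPM in protein-coding transcripts was 72.3% over the members and 86.2% over the 10782 tested protein-coding genes of the whole table. In 27 of 33 members the share was at least 50%, close to the 82.8% of those genes that passed the same mark. The exceptions were Map1lc3a (0%), Becn1 (12.5% ± 4.87), Gabarapl2 (28.4% ± 1.62), Uvrag (28.6% ± 4.99), Atg2b (41.5% ± 17.0) and Rb1cc1 (44.8% ± 8.43). As shares of expected counts, in which long transcripts weigh more, 29 of 33 genes reached 50%, against 89.99% of the coding genes. Rb1cc1 then had 78.3% ± 6.55 and Atg2b 62.9% ± 11.6, while Uvrag lay at the mark with 49.98%, Gabarapl2 just above it with 50.8%, and Tfe3 under it with 46.8% ± 14.1. Becn1 stayed low, at 8.59% ± 1.92. In the table made from the reads, 20 of 33 genes reached 50% of TPM, against 77.5% of the coding genes. At the other end, Map1lc3b had 99.0% ± 0.0528 in coding transcripts and Lamp1 97.9% ± 1.51.

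In Becn1 (chr11:101285952-101302286, minus strand), the transcript Becn1-201, annotated as a target of nonsense-mediated decay, held 49.0, 43.3, 43.0 and 62.2% of TPM in libraries 1 to 4, against 0.670, 2.78, 3.51 and 1.14% for Becn1-205, a coding transcript of 1344 coding bases. Becn1-201 carries 64 bases at the end of 1 exon that Becn1-205 lacks (chr11:101296194-101296257, mm10, minus strand). They are shown because they end its reading frame, whose stop codon is in capitals.
Becn1-201: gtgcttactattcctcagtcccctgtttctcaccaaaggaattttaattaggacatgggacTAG
The coding length of Becn1-201 is thereby 315 bases. The same transcript led in the M21 table made from the reads, with 41.8% ± 7.62. Both transcripts have 12 exons but differ in the last, which spans 720 bases in Becn1-201 and 3030 bases in Becn1-205. Of the 50-base words of Becn1-201, 25.2% also occur in Cntd1, which overlaps Becn1 on the opposite strand. The part of the annotated ends and of Cntd1 in these shares was not tested. The level of Becn1 in coding transcripts alone was 7.26 ± 3.46 TPM, against 56.6 ± 13.0 TPM for the gene (SD, n = 4). The order within the lipid kinase complex therefore turned in coding transcripts. There Pik3c3, Ambra1 and Atg14 averaged 38.5, 24.4 and 11.9 TPM, above Becn1, and Uvrag 1.4 TPM, below it.

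In Gabarapl2 a noncoding transcript held a large share that moved little between libraries. Gabarapl2-203, annotated as a retained intron, held 72.9, 69.7, 72.4 and 70.9% of TPM, and the coding Gabarapl2-201 held 26.9, 30.3, 27.2 and 29.1%. By counts the transcripts were almost even, at 49.2% for Gabarapl2-203 and 50.8% for Gabarapl2-201, whose lengths are 749 and 1677 bases. They also differ in exon number, 3 against 4, and in the last exon, which spans 428 bases in Gabarapl2-203 and 1298 bases in Gabarapl2-201. The part of the annotated ends in these shares was not tested. Gabarapl2-203 begins with 92 bases of the first intron (chr8:111941068-111941159, mm10, plus strand), shown with the final AG of the intron in capitals.
Gabarapl2-203: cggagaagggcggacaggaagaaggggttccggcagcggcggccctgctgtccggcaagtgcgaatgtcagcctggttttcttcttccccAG
In coding transcripts alone, Gabarapl2 averaged 53.0 ± 5.26 TPM, close to Sqstm1 at 48.6 ± 10.9 TPM and Lamp2 at 45.9 ± 8.05 TPM, against 359 ± 7.97 TPM for Map1lc3b and 218 ± 19.8 TPM for Gabarap. The order of the ATG8 genes was therefore the same as at the gene level, with a wider gap below Gabarap.

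The leading transcript, the one with the highest mean TPM over libraries, was the same in both M21 tables for 26 of 33 genes. It differed for Uvrag, Atg2b, Atg16l1, Map1lc3a, Map1lc3b, Gabarap and Tfe3. For Map1lc3a, with 3, 11, 1 and 1 counts, the difference rests on few reads, and by its mean share of TPM Map1lc3a-202 led in both tables. In Map1lc3b, for instance, Map1lc3b-203 held 42.5% ± 8.03 of TPM in the transcript table and 6.97% ± 4.69 in the table made from the reads, where Map1lc3b-205 held 59.4% ± 6.01 against 19.3% ± 10.1. Both are annotated as coding, and by counts Map1lc3b-201 led in both tables with 67.0% and 59.4%. In Atg2b, the noncoding Atg2b-205 held 28.4% in library 1, against 64.5, 63.3 and 63.8% in libraries 2, 3 and 4.

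**Figure D3:**
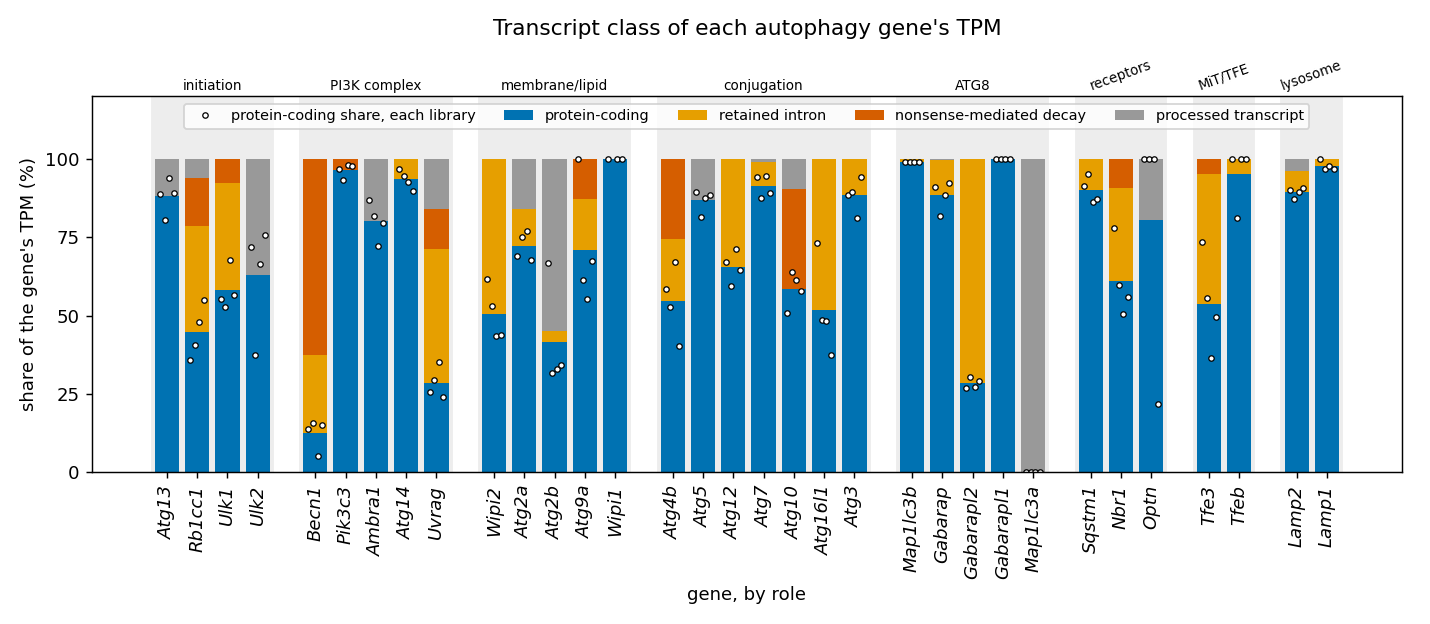
Share of each autophagy gene's TPM by annotated transcript class, as stacked means over libraries, with 1 open point per library for the protein-coding share. Becn1, Gabarapl2 and Uvrag have low protein-coding shares in every library, and Optn and Atg2b have 1 library far from the others.

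Between libraries, nearly all members varied beyond counting error, most of them by less than 2-fold. The test was a Poisson likelihood-ratio test on expected counts rounded to whole numbers, with Benjamini-Hochberg adjustment over all genes tested, and a gene passed at an adjusted p under 0.05. It called 27 of 30 members (90%), against 68.6% of the 13045 genes tested. Members are counted more deeply than most genes, with a median mean count of 376, against 200 over all genes. All 30 had a mean count of at least 50, and among the 9840 genes at that depth 77.8% were called. The members not called were Wipi2, Atg12 and Tfe3, with adjusted p of 0.285, 0.0834 and 0.316. The median span, the highest over the lowest library in CPM, was 1.45-fold for members, 1.49-fold for all genes tested and 1.41-fold at the greater depth. The excess SD is the SD of log2 CPM left after counting error is subtracted. Its median was 0.24 for members, 0.21 for all genes tested and 0.20 at the greater depth. Without library 1, the median excess SD of members was 0.20 and 23 members were called, against 53.9% of genes.

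By role, the test called 4 of 4 initiation genes, 5 of 5 of the lipid kinase complex, 3 of 4 tested genes of membrane supply, 6 of 7 conjugation genes, 4 of 4 tested ATG8 genes, both tested cargo receptors, 1 of 2 MiT/TFE genes and both lysosomal genes. Of the 30 members, 2 were called with a span of at least 2-fold, against 15.8% of all genes tested and 8.95% of those at the greater depth. One was Tfeb (chr17:47737030-47792419, plus strand), with 93, 26, 53 and 31 counts, or 10.1, 2.89, 5.49 and 4.59 CPM, in libraries 1 to 4. Library 1 was the highest and library 2 the lowest, a span of 3.46-fold (adjusted p = 1.42e-08), and without library 1 the adjusted p was 0.0408. The other was Atg2b (chr12:105616136-105685211, minus strand), with 18.8, 14.5, 29.4 and 24.1 CPM, highest in library 3. Its span was 2.03-fold (adjusted p = 5.9e-11), and without library 1 the adjusted p was 1.99e-10.

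Compared pair by pair, libraries 3 and 4 were the closest for the members. Between them the test called 3 of 30 members (10%), namely Ulk1, Gabarapl2 and Nbr1, against 20.5% of all genes tested and 24.0% of genes at a mean count of 50 or more. Between libraries 1 and 2 it called 10 members (33.3%), against 39.7% of genes tested and 46.7% at the greater depth. In both pairs most members did not pass. The other 4 pairs, each with 1 of libraries 1 and 2 and 1 of libraries 3 and 4, had more calls. Between libraries 1 and 3 the test called 24 members (80%), against 44.6% of genes tested and 50.6% at the greater depth, and between libraries 1 and 4 it called 21 (70%), against 42.4% and 49.8%. Between libraries 2 and 3 it called 22 (73.3%), against 44.2% and 51.4%, and between libraries 2 and 4 it called 17 (56.7%), against 42.1% and 50.3%. Whether the members' shares differ from those of other genes was not tested.

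**Figure D4:**
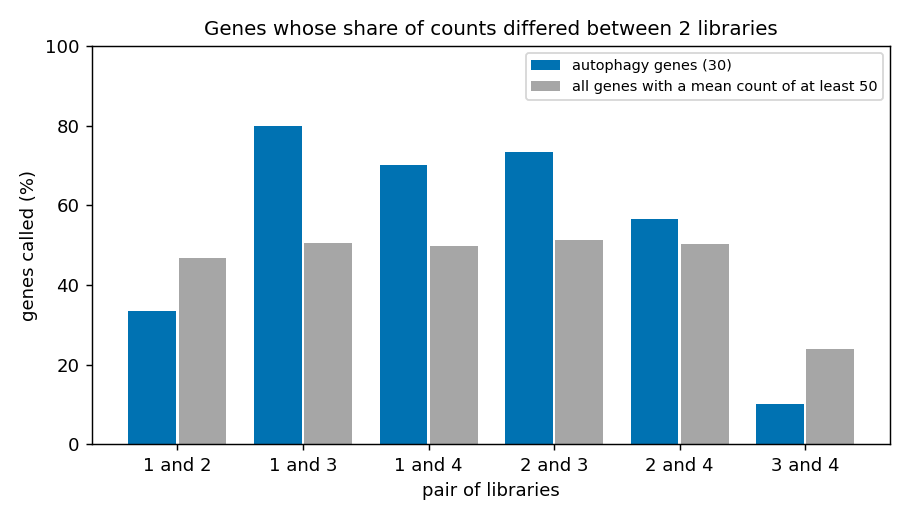
Percent of the 30 tested autophagy genes (left bars) and of all genes at a mean count of 50 or more (right bars) that were called in each of the 6 pairs of libraries. The members' bar is lowest for libraries 3 and 4 at 10% and highest for libraries 1 and 3 at 80%.

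The direction differed from gene to gene within a role. Sqstm1 (chr11:50199366-50210827, minus strand) had 85.7, 72.8, 51.1 and 44.8 CPM in libraries 1 to 4 (adjusted p = 2.51e-29), so libraries 1 and 2 lay above libraries 3 and 4. Atg4b lay the same way, with 74.0, 80.4, 55.1 and 53.1 CPM. Atg3, which acts on the same ATG8 proteins as Atg4b, lay the other way, with 8.72, 8.79, 13.9 and 16.7 CPM. Lamp1, with 13.8, 15.4, 21.2 and 22.6 CPM, was also higher in libraries 3 and 4. Within the initiation complex, Atg13 had 67.2, 59.4, 52.6 and 44.1 CPM while its partner Rb1cc1 had 45.2, 49.6, 64.2 and 68.9 CPM. No library was the common extreme: of the 27 called members, 9 were highest in library 1 and 6 in each other library. Of the 12 Treg and T cell markers, 5 lay higher in libraries 3 and 4 than in libraries 1 and 2, 4 lay lower and 3 overlapped. Foxp3 was among the higher and Cd4 among the lower. Their relation to the autophagy genes was not tested.

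**Figure D5:**
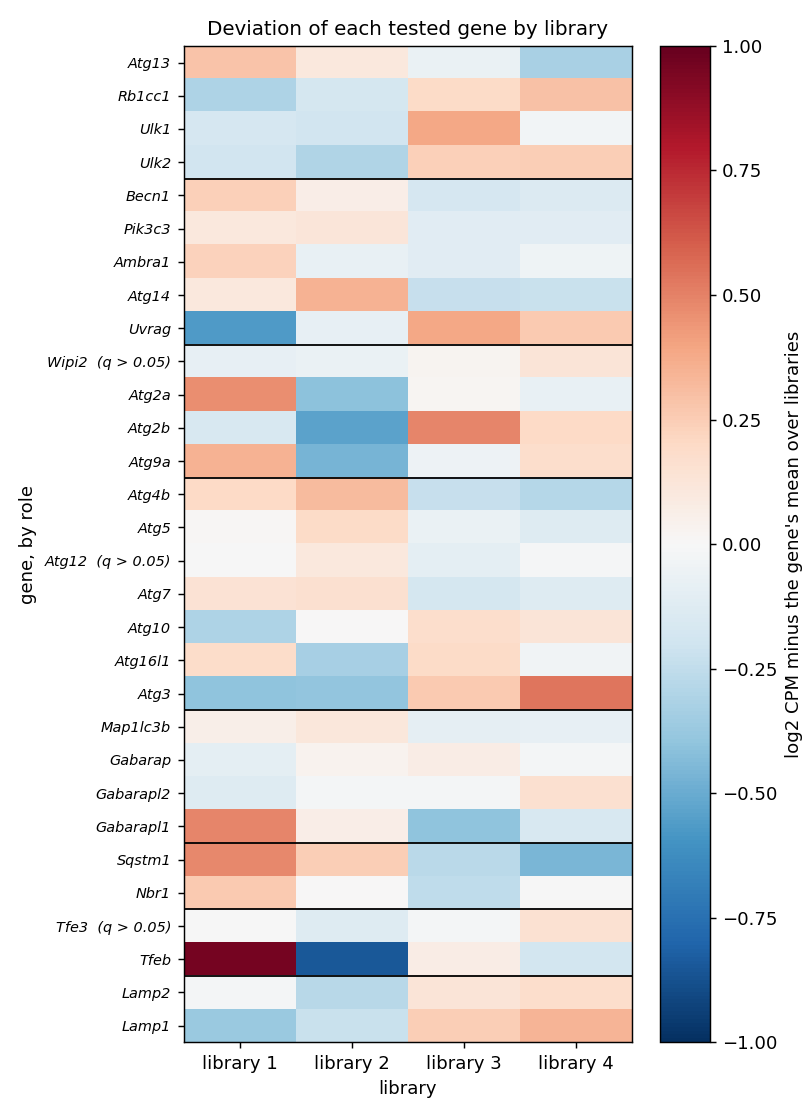
Deviation of each tested autophagy gene's log2 CPM in each library from that gene's mean over libraries, with genes as rows grouped by role and the colour scale from -1 to 1. Libraries 3 and 4 resemble each other, and Tfeb has the strongest colours, high in library 1 and low in library 2.

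Promoter sequence was compared because MiT/TFE factors bind the motif CACGTG and variants of it. RefSeq promoter windows (GRCm38.p6), from 250 bases before to 50 bases after the start, were matched for 27 of the 33 genes, with 31 windows. The motif, which reads the same on both strands, was found in 5 of the 27 genes (18.5%), against 8.09% of all 27025 genes with a window. They are Atg3, Atg5, Atg7, Atg14 and Lamp1. In Atg7 and Atg14 the start of the window with the motif, chr6:114671096 and chr14:47568434, lies inside the gene. These genes begin at 114643097 (plus strand) and 47570649 (minus strand) in M21. Of the 31 windows, 27 had their last 30 bases in M21 transcripts of the gene. Lamp1 has 4 copies and Atg3 has 2, and both stretches are shown for that reason, with the motif in capitals, from chr8:13159088-13159160 and chr16:45158723-45158775, both on the plus strand and ahead of the start.
Lamp1: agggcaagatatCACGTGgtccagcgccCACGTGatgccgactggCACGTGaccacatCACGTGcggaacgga
Atg3: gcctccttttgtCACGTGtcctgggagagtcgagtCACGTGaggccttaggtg
Lamp1 and Atg3 averaged 11.2 ± 2.86 and 7.92 ± 2.72 TPM, both under the median of the members. Atg14, at 12.7 ± 1.90 TPM, was also under it. Atg5 and Atg7, at 37.3 ± 3.31 and 25.3 ± 3.56 TPM, were above it. A match of these letters is a description and not a measured binding site.

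Other genes of the pathway, 46 on 7 lists, were also mostly present: 43 reached 1 TPM in every library. Of the 44 tested, 29 (65.9%) were called between libraries, against 68.6% of all genes tested and 27 of 30 members. Among genes of initiation and the lipid kinase complex, Atg101, a partner of ATG13, had the highest mean with 41.0 ± 18.4 TPM, and Rubcn, an inhibitor of the lipid kinase, the lowest with 11.1 ± 3.84 TPM. Among other conjugation and lipid-binding genes, Atg16l2 averaged 45.7 ± 5.79 TPM and the protease gene Atg4c 1.83 ± 0.599 TPM. Of the scramblases, Vmp1 averaged 381 ± 105 TPM, a range that spans the level of Map1lc3b, and Tmem41b 28.1 ± 5.14 TPM.

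Among other cargo receptors, Bnip3l, which encodes the mitochondrial receptor NIX, was the highest with 390, 413, 466 and 455 TPM, and Bnip3 was the lowest with 13.5 ± 1.02 TPM. All 11 of these receptors reached 10 TPM in every library, unlike Optn. Of the fusion machinery, the SNARE gene Vamp8 averaged 251 ± 18.1 TPM and Epg5, a tether, 3.42 ± 0.772 TPM. Of the lysosomal genes, the protease gene Ctsd averaged 236 ± 48.7 TPM and Cd63 0.693 ± 0.395 TPM (SD, n = 4 throughout). Lamp1, at 11.2 TPM, thus lay among the lower lysosomal genes of these cells.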

How the data were processed

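PolyA RNA-seq of 4 technical libraries of 1 sample was analysed. Per the labels' protocols, material was sheared (Covaris) to a size range of 100 to 300. The authors deposited expected counts and TPM per gene and transcript on mm10 with GENCODE M21, derived from a transcriptome alignment. A further deposited table, made from the reads, holds estimated counts and TPM for each transcript. The last deposited table, on GENCODE M4, gives whole-number counts of a genome alignment. Programs and strand settings: not given in the sources used here. Rows outside the gene annotation held 0.133, 0.179, 0.178 and 0.504% of expected counts and were left out.

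Members and lists were chosen with earlier results of these data known. All members are named; values in every library are given for the highest and lowest of each role, those called with a span of at least 2-fold, and those whose level or order turned between quantifications. Sqstm1, Atg4b, Atg3, Lamp1, Atg13 and Rb1cc1 were chosen as examples of direction after their values were seen. One erythroid marker is not reported here.

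Expected counts were rounded. Share differences were tested by a Poisson likelihood ratio with TMM library sizes (edgeR 4.0.16, R 4.3.3), in genes whose mean count reached 10, adjusted by Benjamini-Hochberg; the script was tested on simulated data. An edgeR contrast was not used because single libraries leave no residual degrees of freedom. Alternatives were DESeq2 1.42.0 size factors, total counts, no filter, the other tables, pseudocounts and leaving out each library. M4 counts of 22195 matched genes were divided by mean effective length (minimum 50) and scaled to the TPM total. The rescaling over coding genes, the mean count of 50 and coding shares of expected counts were added after seeing the data. Coordinates and transcript sequences are GENCODE M21, promoters RefSeq. Each value after ± is an SD over the libraries, and the floors in CPM cover counting error only. The remaining steps ran in Python 3.11.15 (scipy 1.17.1, numpy 2.4.6, pandas 2.3.3; figures with matplotlib 3.10.9).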

Additional observations from a re-analysis of the deposited data

Results flagged for a closer look

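Atg9a, the scramblase of the growing membrane, was at 4.7 TPM in library 2, against 8.49, 8.21 and 8.39 TPM in libraries 1, 3 and 4. In this table library 2 was set off from the others by nearly the whole range of the gene. The value was flagged by a rule that about 1 in 20 groups of 4 values meets by chance, and 33 genes were examined. In CPM the gene was at 24.97, 14.2, 19.0 and 22.2 in libraries 1 to 4. The gap was not as wide in the other tables. The rescaled table made from the reads gave 6.79, 5.70, 7.44 and 7.56 TPM (adjusted p = 0.183 by the Poisson likelihood-ratio test on its counts), and length-scaled M4 counts gave 8.36, 3.47, 5.15 and 5.16, where library 1 lay farthest from the others. Of the 50-base words of its leading transcript, 41.6% also occur in Gm29253, a gene that overlaps Atg9a on the same strand, and the part of that overlap was not tested.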

How the results depend on the processing

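No paired analysis was possible because there is 1 group. The median level of the members was 16.3 TPM in the gene table, 9.64 TPM in the table made from the reads and 14.3 in length-scaled M4 counts; rescaled over coding genes, the table made from the reads gave 15.9. The ratio of Gabarap over Map1lc3b turned to 1.19 in M4 counts, the only pair with a clear order to reverse; the cause was not tested. Leaving out each library gave a median excess SD from 0.199 to 0.254, with 23 to 26 members called, against 53.9 to 62.0% of all genes, and 8 to 10 clear pairs. The members called numbered 26 to 28 under the other scalings, filters and tables, against 68.5% of all genes with DESeq2 size factors, 69.2% with total counts, 37.3% with no filter, 62.5% with counts made from the reads and 78.5% with M4 counts. With M4 counts, Wipi2 and Atg12 passed and Uvrag and Map1lc3b did not; with counts made from the reads, Atg12 passed and Atg9a and Gabarap did not. Without library 1, the calls of Uvrag, Ambra1, Atg10, Gabarap and Gabarapl1 were lost and Atg12 passed. The calls of Atg5 and Atg16l1 were lost without library 2, those of Ulk1 and Atg10 without library 3 and that of Gabarapl2 without library 4, that of Atg5 with total counts and that of Atg10 with no filter. Members with at least 50% of TPM in coding transcripts numbered 20 in the table made from the reads, against 27, and the share of all tested coding genes was 77.5%, against 82.8%. By counts, 30 leading transcripts were the same in both M21 tables. With 1 biological sample, no value here measures variation between mice.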
